A study of Rattus norvegicus with 49 samples.

Results

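The enzymes described here attach a sulfate, a glucuronic acid or a glutathione to a substrate. They were taken as every gene on the array whose symbol marks it as a cytosolic sulfotransferase (Sult), a UDP-glucuronosyltransferase (Ugt) or a cytosolic or related glutathione transferase of the alpha, kappa, mu, omega, pi, theta or zeta class (Gst). This gave 42 genes of the 14217 measured, of which 14 were sulfotransferases, 8 were UDP-glucuronosyltransferases and 20 were glutathione transferases. Each gene was read from 1 probe set, and 38 of the 42 had a mean log2 intensity above 4.68, the 20th percentile of all probe sets. The 4 below it were Gsta3l1, Sult1d1, Sult2a1 and Sult2a2.

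Livers of 49 male Sprague-Dawley rats, aged about 8 to 10 weeks, were measured on Affymetrix rat genome arrays. Each rat had 1 array and was sampled once, at day 4 or day 14. The same age is given for both days, without saying at which point of the study it holds. Groups 5, 4 and 3 had their powdered feed cut by 60%, 30% and 15% and were fasted the night before the livers were taken. Group 1 ate freely and was not fasted, and group 2 ate freely and was fasted overnight. Group 2 was the control for the other 4 groups, so all comparisons with it on a day share its 5 rats. Each group had 5 rats per day, except for the 4 rats of group 1 at day 14. The account of fasting follows the sample labels and the study's methods, whereas the design text of the series has all animals fasted. The tissue was whole liver, in which fewer cells of a type and less RNA per cell cannot be told apart. The 7 hepatocyte markers measured were all above the dim level, with summed intensities of 146792 to 165402 over the 10 groups.

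Conjugation is the second phase of detoxification, which makes drugs, steroids, bile acids, bilirubin and reactive products of lipid oxidation more soluble so that they can leave the liver in bile or urine. Sulfotransferases take sulfate from PAPS and UDP-glucuronosyltransferases take glucuronic acid from UDP-glucuronate, while glutathione transferases use glutathione itself. In rats several of these enzymes are known to differ between male and female liver, with Sult2a enzymes more abundant in females and Sult1e1 and Sult1c enzymes more abundant in males.

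Over the 42 genes, 22 passed the test in at least 1 of the 8 comparisons with group 2 and 20 in none, or 52.4% of the 42 beside 41.4% of all genes. A gene was called when limma gave a Benjamini-Hochberg adjusted p under 0.1 over all genes. Restriction called 12 genes, or 28.6% of the 42 (27.3% of all genes), of which 5 were sulfotransferases, 3 UDP-glucuronosyltransferases and 4 glutathione transferases. Feeding without a fast (group 1) called 15, or 35.7% (25.8% of all genes), of which 11 were glutathione transferases and 1 was a sulfotransferase. Both kinds of comparison called 5 genes, or 11.9% of the 42 (11.7% of all genes). In group 5 at day 14 there were 8 calls, or 19% of the 42 (5 higher and 3 lower), beside 19.8% of all genes called (8.88% higher and 10.9% lower). At day 4 there were 2 calls, both lower, or 4.76% of the 42, beside 7.14% of all genes (3.58% lower). With 1 fit of all groups, group 5 had 15 calls at day 14, or 35.7% of the 42 (27.5% of all genes), and 4 at day 4, or 9.52% (10.2% of all genes). Group 4 had 9 calls at day 14, or 21.4% of the 42 (12.8% of all genes), and 1 at day 4, or 2.38% (5.43% of all genes). Group 3 had 4 calls at day 14, or 9.52% of the 42 (6.54% of all genes), and none by limma at day 4 (0.253%), where 2 of the 42 had an unadjusted p under 0.05. Group 1 had 10 calls at day 14, all higher, or 23.8% of the 42 (13.2% of all genes), and 11 at day 4, 10 of them higher, or 26.2% (21.3% of all genes). In the fit of all groups, group 1 had 7 calls at day 14, or 16.7% of the 42 (16.9% of all genes). At day 4 that fit gave it 13 calls, or 31% (22.5% of all genes). The median log2 change of the 42 genes at day 14 was 0.028 for group 5 and 0.076 for group 1, against 0.003 and 0.013 over all genes. The map of changes by gene and diet shows the calls.

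**Figure D1:**
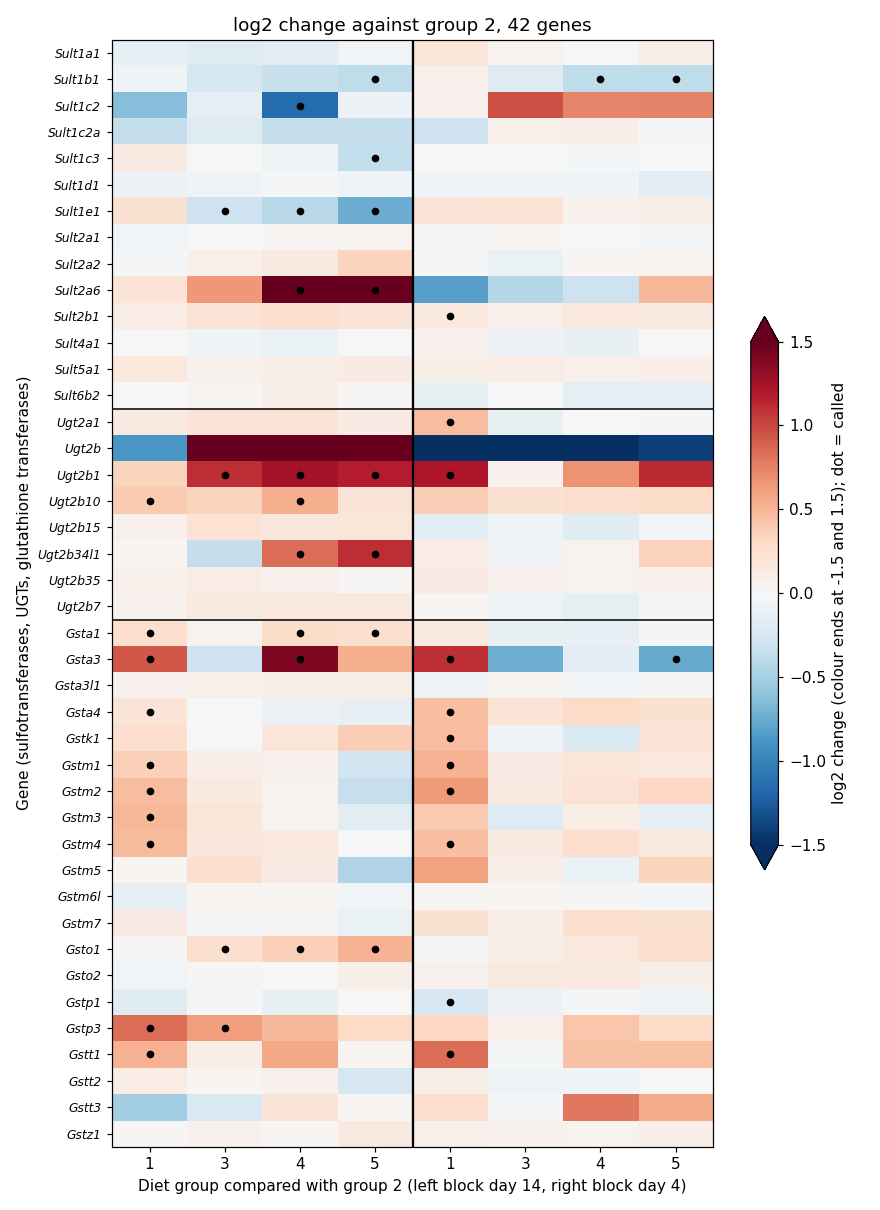
Log2 change of each of the 42 genes (rows, by family) against group 2 for groups 1, 3, 4 and 5 (columns), with day 14 in the left block and day 4 in the right block. Black dots mark called genes, and colours end at log2 changes of -1.5 and 1.5. Calls under restriction are spread over the 3 families and lie mostly in the day 14 block, while those of group 1 lie mostly among the glutathione transferases.

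Among the sulfotransferases, Sult2a6 rose with restriction at day 14 while Sult1e1, Sult1b1 and Sult1c3 fell. Sult2a6 is a hydroxysteroid and bile acid sulfotransferase, listed by RefSeq also as BAST I and as senescence marker protein 2A. Its log2 intensity at day 14 was 11.40, 11.02, 11.73, 11.20 and 11.50 in group 5, against 9.04, 7.88, 7.67, 8.95 and 7.37 in group 2. Every rat of group 5 lay above every rat of group 2. The mean was 11.37 ± 0.27 in group 5 and 8.18 ± 0.77 in group 2 (SD, n = 5 each), so the log2 change was 3.19 (standard error 0.30, adjusted p = 4.62e-05 by limma) or 9.14-fold.

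Group 4 lay between these levels at day 14, and group 3 overlapped group 2. Sult2a6 read 10.07, 10.94, 11.21, 10.39 and 9.77 in group 4, all above group 2, and the log2 change was 2.30 (standard error 0.36, adjusted p = 0.00253). Group 3 read 8.07, 8.40, 9.75, 8.17 and 9.75, a log2 change of 0.65 with a 95% interval of -0.27 to 1.56 (adjusted p = 0.511). The slope over groups 2 to 5 was 0.55 on the log2 scale per 10 percentage points less food (adjusted p = 8.66e-06), where 7 of the 42 genes had a positive and 6 a negative called slope (24% of all genes called, 10.8% positive and 13.2% negative). Group 5 also exceeded group 3 itself by 2.54 (standard error 0.33, adjusted p = 0.00319).

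At day 4 Sult2a6 varied widely within groups. Group 5 read 8.03, 10.00, 9.40, 9.98 and 10.05, against 9.52, 8.20, 7.67, 10.06 and 9.54 in group 2, and the groups overlapped. The log2 change was 0.49 with a 95% interval of -0.60 to 1.59 (adjusted p = 0.676). The change at day 14 minus that at day 4 was 2.70 (standard error 0.63, adjusted p = 0.0506), and this was the 1 call among the 42 genes for that difference (2.04% of all genes). The call was lost without rat 3 of group 5 or rat 4 of group 2 at day 4, with a highest adjusted p of 0.106. Within group 5, day 14 exceeded day 4 by 1.88 (standard error 0.34, adjusted p = 0.0172), and within group 4 by 1.78 (standard error 0.40, adjusted p = 0.0412). In group 1 the rats read 8.85, 6.92, 8.50 and 9.30 at day 14, within the range of group 2 but for the lowest and the highest rat.

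Sult2a6 lies on chromosome 1 of GRCr8 (chr1:84046685-84097808) and has a near copy, Sult2a1 (chr1:84582011-84639001), which is described after its values were seen. In the 250 bases before the starts used in RefSeq's promoter table the 2 genes share 245 bases (98%). For Sult2a1 that start lies inside the gene span given above, so the 60 bases nearest the start are left out for both. The other 190 bases, on the minus strand and outside both spans, are shown here to set the copies side by side, at chr1:84097869-84098058 for Sult2a6 and chr1:84639008-84639197 for Sult2a1. Capitals mark the 3 bases that differ in this stretch.
Sult2a6: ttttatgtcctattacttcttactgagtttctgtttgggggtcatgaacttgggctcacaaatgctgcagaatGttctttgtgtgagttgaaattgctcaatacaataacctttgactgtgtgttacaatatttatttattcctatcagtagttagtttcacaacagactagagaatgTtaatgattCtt
Sult2a1: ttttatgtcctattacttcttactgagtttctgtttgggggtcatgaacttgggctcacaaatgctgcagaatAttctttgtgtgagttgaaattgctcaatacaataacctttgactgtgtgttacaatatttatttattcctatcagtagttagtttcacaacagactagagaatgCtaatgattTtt
The probe set of Sult2a1 read 4.00 to 4.52 over the 49 rats and that of Sult2a2 3.91 to 4.75, with means below the dim level. Which of these genes bound to the Sult2a6 probes was not tested.

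Sult1e1, the estrogen sulfotransferase, fell with restriction at day 14. It read 12.31, 12.58, 12.29, 12.92 and 11.86 in group 5, against 13.25, 13.09, 12.97, 13.11 and 13.24 in group 2, and the groups did not overlap. Its log2 change was -0.74 (standard error 0.16, adjusted p = 0.00823) in group 5 and -0.41 (standard error 0.09, adjusted p = 0.0137) in group 4, again without overlap. In group 3 it was -0.31 (adjusted p = 0.0963), with overlap, and this call was lost in 8 of the 10 fits that left out 1 rat, with adjusted p up to 0.194. The slope at day 14 was -0.12 per 10 percentage points (adjusted p = 0.000752). At day 4 Sult1e1 was not called in any group, with a log2 change of 0.09 and a 95% interval of -0.27 to 0.45 in group 5. Within group 5 it was lower at day 14 than at day 4 by 0.63 (log2 change -0.63, adjusted p = 0.077), a call lost in 8 of 10 such fits.

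Sult1b1, which sulfates thyroid hormones and small phenols, was the 1 sulfotransferase called at day 4 under restriction. It read 12.39, 12.42, 12.44, 12.41 and 12.28 in group 5, against 12.70, 12.91, 12.48, 12.90 and 12.84 in group 2, without overlap. The log2 change was -0.38 (standard error 0.08, adjusted p = 0.0283), and group 4 had the same change of -0.38 (adjusted p = 0.0821). At day 14 group 5 had -0.39 (standard error 0.14, adjusted p = 0.0817), where the groups overlapped because rat 2 of group 2 read 12.19. The calls for group 4 at day 4 and for group 5 at day 14 were lost in 8 and 7 of the 10 fits that left out 1 rat, with adjusted p up to 0.179 and 0.167. Without rat 2 of group 2 at day 14 the change of group 5 was -0.52 (adjusted p = 0.00576).

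The Sult1c genes, which act on small phenols and hydroxyarylamines in rats, lie close together on chromosome 9 and were called in different comparisons. They are described after their values were seen. Sult1c3 read 12.39, 12.97, 12.60, 12.62 and 12.23 in group 5 at day 14, against 12.82, 13.11, 12.82, 13.00 and 12.89 in group 2, and its change was -0.37 (standard error 0.12, adjusted p = 0.0668). The range of group 2 held 1 rat of group 5, and the other 4 lay below it. This call of Sult1c3 was lost without rat 5 of group 2. Sult1c2 read 8.50, 6.92, 7.55, 7.81 and 8.37 in group 4 at day 14, against 8.61, 9.78, 9.63, 8.44 and 8.47 in group 2, and its change was -1.16 (standard error 0.34, adjusted p = 0.0572), with 1 rat of group 4 inside the range of group 2. This call was lost without rat 2 of group 4, the lowest rat, at 6.92. In group 5 at that day the change of Sult1c2 was -0.09 with a 95% interval of -0.72 to 0.54.

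Sult1c2 also differed between the days under restriction. Day 14 was lower than day 4 by a log2 change of -2.03 in group 4 (standard error 0.37, adjusted p = 0.021) and of -1.25 in group 3 (standard error 0.12, adjusted p = 0.00169), with no overlap in either. Sult1c2a moved the same way, with -0.47 in group 4 (adjusted p = 0.0828) and -0.29 in group 3 (adjusted p = 0.0606). These 2 genes had a correlation of 0.667 over the 49 rats after group means were removed, a description, since both genes were read from the same arrays. A probe set shared by Sult1c2 and RGD1562392 read 7.60 to 8.15 at day 14 and 8.73 to 9.05 at day 4 in group 3. In group 4 it read 6.39 to 7.98 at day 14 and 7.72 to 9.61 at day 4, with overlap. In group 1 at day 14 it read 6.17 to 7.19, below the 7.33 to 8.15 of group 2, while at day 4 these groups overlapped. Between the days limma called none of the 42 genes in group 2 (0.00703% of all genes) or in group 1 (0% of all genes), where 6 and 7 of the 42 had an unadjusted p under 0.05.

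Sult1a1, the main phenol sulfotransferase, read 13.12 to 13.85 over all rats and was not called in any comparison with group 2. Its log2 change in group 5 at day 14 was -0.04 with a 95% interval of -0.26 to 0.18. Sult2b1, which sulfates cholesterol, was called in group 1 at day 4, with 6.38, 6.34, 6.34, 6.36 and 6.29 in group 1 against 6.19, 6.23, 6.04, 6.27 and 6.21 in group 2. The groups did not overlap, but the change of 0.15 (adjusted p = 0.0863) was not called in 9 of the 10 fits that left out 1 rat, with adjusted p up to 0.162. The second probe set of Sult2b1 had means of 5.62 in group 1 and 5.07 in group 2 at day 4. At day 14 its means were 5.72 in group 1 and 5.05 in group 2, and the groups did not overlap on either day. Sult4a1, Sult5a1, Sult6b2, Sult1c2a, Sult1d1, Sult2a1 and Sult2a2 were called in no comparison with group 2.

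**Figure D2:**
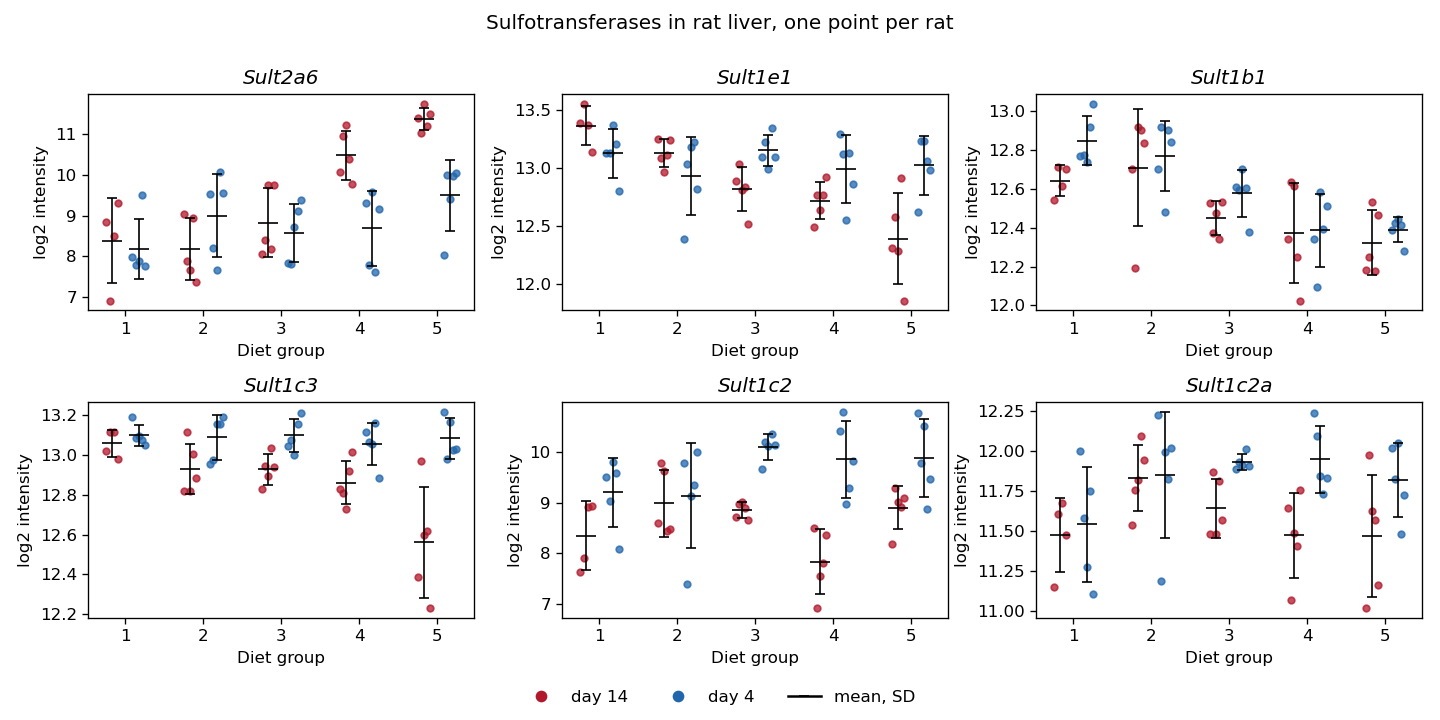
Log2 intensity of 6 sulfotransferases (y axis) by diet group (x axis), with 1 point per rat, day 14 in red to the left and day 4 in blue to the right, and black marks for the mean and SD. At day 14 the 5 rats of group 5 stand between 11.02 and 11.73 for Sult2a6, above all rats of group 2, and between 11.86 and 12.92 for Sult1e1, below all rats of group 2.

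The UDP-glucuronosyltransferases measured by probe sets of their own were 7 Ugt2b genes and Ugt2a1. They lie on chromosome 14 between 20797262 (the first base of Ugt2a1) and 21524095 (the last of Ugt2b34l1) of GRCr8. Called changes went up in each case, and they fell on Ugt2b1, Ugt2b34l1, Ugt2b10 and Ugt2a1. The remaining 4 genes, Ugt2b, Ugt2b7, Ugt2b15 and Ugt2b35, were called in no comparison with group 2.

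Ugt2b1, which glucuronidates phenols and steroids, was higher in all 3 restricted groups at day 14. It read 12.13, 11.61, 12.01, 11.35 and 11.69 in group 5, against 9.90, 10.77, 10.11, 11.32 and 10.81 in group 2, and the groups did not overlap. The log2 change was 1.11 (standard error 0.27, adjusted p = 0.0356) in group 3, 1.24 (standard error 0.23, adjusted p = 0.00566) in group 4 and 1.18 (standard error 0.24, adjusted p = 0.0069) in group 5. Group 3 overlapped group 2 by 1 rat. Group 5 against group 3 at that day called 7 of the 42 genes (9.55% of all genes), and for Ugt2b1 gave 0.07 with a 95% interval of -0.37 to 0.51 (adjusted p = 0.9).

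At day 4 the control rats spread further. Group 5 read 11.91, 11.65, 11.72, 11.32 and 10.81 for Ugt2b1, against 11.23, 9.43, 9.39, 10.44 and 11.33 in group 2, with a log2 change of 1.12 and a 95% interval of 0.27 to 1.97 (adjusted p = 0.149). Group 1 read 11.90, 10.73, 11.47, 11.98 and 11.81 and overlapped group 2. Its change of 1.21 was called (standard error 0.40, adjusted p = 0.0633), but the call was lost in 6 of the 10 fits that left out 1 rat, with adjusted p up to 0.134. In group 1 at day 14 the change was 0.34 (adjusted p = 0.516).

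Ugt2b34l1, a Ugt2b gene with no assigned substrate here, was called at the 2 stronger restrictions. It read 8.59, 7.42, 7.40, 7.89 and 7.88 in group 5 at day 14, against 6.60, 7.36, 6.30, 7.00 and 6.36 in group 2. No rat of group 5 was below the highest of group 2, though the lowest was close to it. The log2 change was 1.11 (standard error 0.25, adjusted p = 0.01) in group 5 and 0.84 (standard error 0.19, adjusted p = 0.0205) in group 4, which overlapped group 2 by 1 rat. In group 3 it was -0.36 with a 95% interval of -0.78 to 0.06 (adjusted p = 0.4), and group 5 exceeded group 3 by 1.47 (adjusted p = 0.00401). Day 14 was higher than day 4 by 1.05 in group 5 (adjusted p = 0.0267) and by 1.07 in group 4 (adjusted p = 0.00287).

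Ugt2b10 and Ugt2a1 changed less. Ugt2b10 read 10.67, 10.38, 10.94 and 10.69 in group 1 at day 14, against 10.23, 10.49, 10.03, 10.52 and 10.08 in group 2, a log2 change of 0.40 (adjusted p = 0.097) that was lost in 6 of the 9 fits that left out 1 rat, with adjusted p up to 0.229. In group 4 at day 14 it was 0.54 (standard error 0.13, adjusted p = 0.0243). Ugt2a1, an enzyme best known from the olfactory epithelium, read 6.69, 6.44, 6.30, 6.66 and 6.79 in group 1 at day 4, against 6.43, 5.93, 5.88, 6.13 and 6.21 in group 2, and its change was 0.46 (standard error 0.12, adjusted p = 0.0218). Both pairs of groups overlapped.

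Ugt2b, also named Ugt2b2 and known for glucuronidating androsterone in rats, had 2 separate levels among the rats. It is described after its values were seen. In 10 of the 49 rats its log2 intensity was 4.17 to 7.45, and in 39 it was 12.51 to 13.39, with none in the gap of 5.06 between. A second probe set of the gene split the same rats, at 4.25 to 5.00 and at 9.60 to 11.16. The low rats were found in 7 of the 10 groups, 5 at day 4 and 5 at day 14, with 3 of 9 rats in group 1, 2 of 10 in group 2, 2 of 10 in group 3, 1 of 10 in group 4 and 2 of 10 in group 5. At day 14 group 5 read 12.98, 12.98, 13.12, 7.45 and 12.89, against 6.87, 4.52, 13.11, 13.21 and 12.81 in group 2. The change of group means was 1.78 with a 95% interval of -2.02 to 5.58, and the group means mix the 2 levels.

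**Figure D3:**
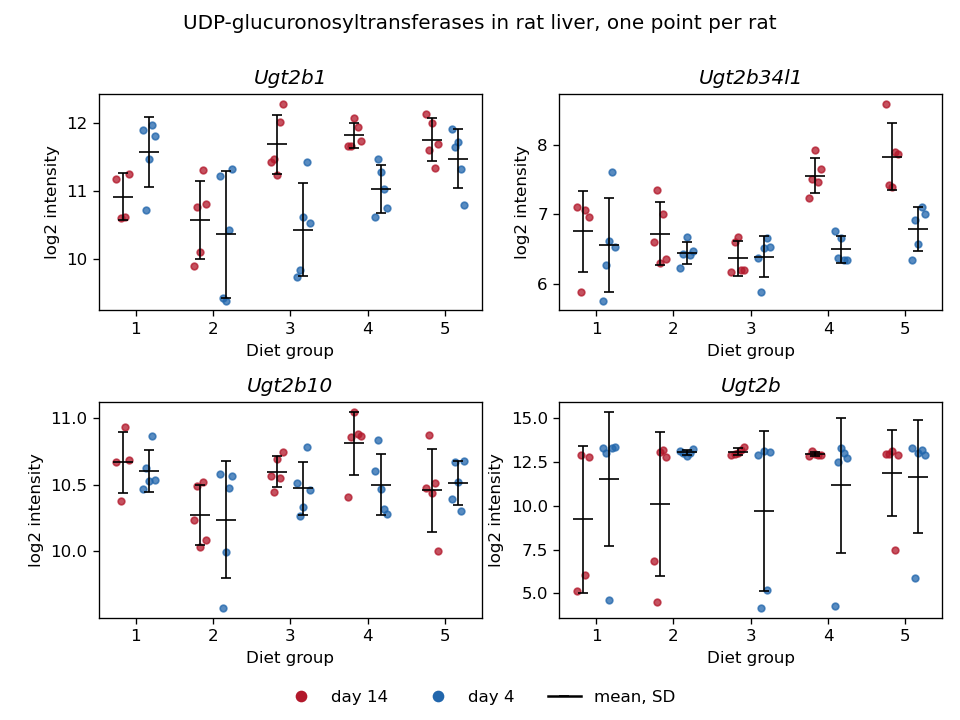
Log2 intensity of 4 UDP-glucuronosyltransferases (y axis) by diet group (x axis), with 1 point per rat, day 14 in red to the left and day 4 in blue to the right, and black marks for the mean and SD. Ugt2b1 is at 11.24 or higher in every restricted rat of day 14, Ugt2b34l1 is raised in groups 4 and 5 of that day, and Ugt2b has 10 rats far below the other 39.

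Group 1, the rats that had not been fasted, was set against group 2 for the glutathione transferases. Of 20 genes, 9 rose and none fell at day 14, and 7 rose and 1 fell at day 4. In all genes 7.26% were called higher at day 14, and 9.76% higher and 11.5% lower at day 4. At day 14 the 9 were Gsta1, Gsta3, Gsta4, Gstm1, Gstm2, Gstm3, Gstm4, Gstp3 and Gstt1, and 7 of the 20 genes had no overlap between the groups (12% of all genes). At day 4 only 2 of the 20 had no overlap (13% of all genes). On both days 6 of the 20 were called, or 30% (8.64% of all genes). The median log2 change of the 20 genes was 0.157 at day 14 and 0.281 at day 4, against 0.013 and 0.003 over all genes. Of 9 markers of stellate cells and fibroblasts 3 were called higher in group 1 on each day. Their summed intensities were 5614 to 6425 in group 1 and 3334 to 5638 in group 2 at day 14, and 4485 to 6673 in group 1 and 2929 to 4785 in group 2 at day 4, with overlap on both days, and their part in the result was not tested.

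The mu class genes lie side by side on chromosome 2, from 198219769 (Gstm5) to 198373487 (Gstm4). They are given in full after their values were seen, since the rule for naming did not reach them. Gstm1 read 13.89, 13.90, 13.97, 13.91 and 13.88 in group 1 at day 4, against 13.41, 13.25, 13.27, 13.49 and 13.55 in group 2, and its change was 0.52 (standard error 0.07, adjusted p = 0.000443). At day 14 it read 13.72, 13.80, 13.93 and 13.90 in group 1, against 13.52, 13.27, 13.51, 13.53 and 13.58 in group 2, a change of 0.36 (standard error 0.08, adjusted p = 0.0197). Neither pair overlapped.

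Gstm2 followed Gstm1. It read 13.11, 13.12, 13.19 and 13.05 in group 1 at day 14, against 12.57, 12.62, 12.68, 12.71 and 12.68 in group 2, without overlap, a change of 0.46 (standard error 0.06, adjusted p = 0.00111). At day 4 the change was 0.64 (adjusted p = 0.0247), with overlap. Gstm3 and Gstm4 had changes of 0.50 and 0.48 at day 14 (adjusted p = 0.0164 and 0.0195). Gstm5, Gstm6l and Gstm7 were not called in group 1 on either day. After group means were removed, Gstm1 and Gstm2 had a correlation of 0.693 over the 49 rats, against a median of 0.125 over 171 pairs of glutathione transferases, as a description of genes read from the same arrays.

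Gstt1, Gstp3 and Gsta3 had the largest rises in group 1. Gstt1, a theta class enzyme that acts on small halogenated compounds, read 10.17, 10.18, 10.34, 10.39 and 10.17 in group 1 at day 4, against 9.76, 8.98, 9.34, 9.47 and 9.50 in group 2, without overlap, a change of 0.84 (standard error 0.12, adjusted p = 0.000954). At day 14 it was 0.52 (adjusted p = 0.0605), with overlap, and the call was lost in 7 of the 9 fits that left out 1 rat, with adjusted p up to 0.15. Gstp3, a pi class gene, read 13.41, 13.68, 13.73 and 13.71 in group 1 at day 14, against 12.96, 12.18, 12.85, 13.15 and 12.82 in group 2, without overlap, a change of 0.84 (standard error 0.17, adjusted p = 0.0112).

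Gstp1, the pi class enzyme known as a marker of preneoplastic foci in rat liver, went the other way. It read 9.43, 9.43, 9.40, 9.62 and 9.34 in group 1 at day 4, against 9.70, 9.64, 9.91, 9.65 and 9.57 in group 2, a change of -0.25 (standard error 0.08, adjusted p = 0.0424). One rat of group 1 lay within the range of group 2. The call was lost without rat 5 of group 1 (adjusted p = 0.103). At day 14 the change was -0.18 with a 95% interval of -0.36 to -0.01 (adjusted p = 0.187).

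Gsta3 is an alpha class enzyme listed by RefSeq also as Yc2. Its intensity was low and its spread the second widest of the 20 genes. It read 6.61, 5.46, 6.98, 6.44 and 6.64 in group 1 at day 4, against 5.70, 4.95, 5.00, 5.21 and 5.78 in group 2, a change of 1.10 (standard error 0.26, adjusted p = 0.0156) with overlap by 1 rat of group 1. Group 5 at day 4 read 4.39, 4.64, 4.52, 4.81 and 4.52, below all of group 2, a change of -0.75 (standard error 0.16, adjusted p = 0.0261), and 4 of the 5 values of group 5 were below the dim level.

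At day 14 Gsta3 was spread widely under restriction. Group 5 read 7.11, 4.91, 6.71, 5.00 and 5.04 and group 4 read 4.64, 7.79, 7.34, 6.25 and 7.06, against 5.61, 5.04, 5.00, 5.39 and 5.00 in group 2. Both restricted groups had rats below and above the range of group 2. The change of 1.41 in group 4 (adjusted p = 0.0896) was lost in 9 of the 10 fits that left out 1 rat, and without rat 1 of group 4 it was 1.90 (adjusted p = 0.0018). In group 5 it was 0.54 with a 95% interval of -0.34 to 1.42. In group 1 at day 14 the change was 0.93 (adjusted p = 0.0664), lost in 6 of 9 such fits with adjusted p up to 0.162.

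The sequence before Gsta3 is shown because it holds a core of the antioxidant response element, at which the factor NRF2 binds in other glutathione transferase genes. It is the 150 bases before its start, at chr9:31154839-31154988 of GRCr8 on the plus strand, with the core TGACNNNGC in capitals.
Gsta3: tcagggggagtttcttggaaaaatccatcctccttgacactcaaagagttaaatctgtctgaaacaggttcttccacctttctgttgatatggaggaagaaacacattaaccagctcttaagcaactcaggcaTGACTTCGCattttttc
Searched on both strands of windows from 250 bases before to 50 after the start, this core was found in 3 of the 12 named genes that had a window (Gsta1, Gsta3 and Gstp1) and in 12.2% of 27457 windows of all genes. The E-box CACGTG was found in Gsto1 and Sult2b1 (6.65% of windows) and the D-box TTATGTAA in Gsta3 (0.881%). The direct repeat 1 element (0.0583% of windows) and the HNF1 sequence (0.0036%) were in none of the 12. A match describes letters and not a bound site.

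Under restriction 4 glutathione transferases were called, and Gsto1 changed in steps with the diet. Gsto1, an omega class enzyme that reduces dehydroascorbate and methylated arsenic, read 12.12, 12.15, 12.07, 11.93 and 12.16 in group 3, 12.23, 12.18, 12.10, 12.28 and 12.24 in group 4 and 12.45, 12.39, 12.41, 12.37 and 12.24 in group 5 at day 14, against 11.84, 11.84, 11.81, 11.91 and 11.84 in group 2. Every restricted rat was above every rat of group 2. The log2 change was 0.24 (standard error 0.06, adjusted p = 0.0441) in group 3, 0.36 (standard error 0.06, adjusted p = 0.00285) in group 4 and 0.52 (standard error 0.06, adjusted p = 0.000198) in group 5. The call in group 3 was lost without rat 1, rat 2 or rat 5 of that group, with adjusted p up to 0.118.

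The slope of Gsto1 was 0.08 per 10 percentage points less food at day 14 (adjusted p = 8.66e-06) and 0.04 at day 4 (adjusted p = 0.0289), where 4 of the 42 genes had a called slope (8.82% of all genes). Group 5 exceeded group 3 by 0.29 at day 14 (adjusted p = 0.0325). The change of group 5 against group 2 at day 4 was 0.25 with a 95% interval of 0.07 to 0.43 (adjusted p = 0.127). In group 1 Gsto1 was 11.87 ± 0.06 (SD, n = 4) at day 14, against 11.85 ± 0.04 (SD, n = 5) in group 2, a difference smaller than the spread between rats. Gsto2, its neighbour on chromosome 1, was not called in any comparison with group 2.

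Gsta1 and Gstp3 also rose under restriction. Gsta1, an abundant alpha class enzyme, read 13.50, 13.30, 13.51, 13.44 and 13.46 in group 5 at day 14, against 13.17, 13.14, 13.28, 13.26 and 13.21 in group 2, without overlap, a change of 0.24 (standard error 0.06, adjusted p = 0.0293). Its change was 0.27 in group 4 (adjusted p = 0.0253) and 0.25 in group 1 (adjusted p = 0.0293) at that day. Gstp3 was called in group 3 at day 14 with 0.62 (standard error 0.15, adjusted p = 0.0327), without overlap, and its change in group 5 was 0.30 with a 95% interval of -0.04 to 0.64.

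The mu class genes spread widely in group 5 at day 14. Gstm1 read 13.07, 13.42, 13.53, 13.31 and 12.61 in group 5, against 13.52, 13.27, 13.51, 13.53 and 13.58 in group 2, and Gstm2 read 12.15, 12.74, 12.58, 12.31 and 11.75 in group 5, against 12.57, 12.62, 12.68, 12.71 and 12.68 in group 2. Rat 5 of group 5 was the lowest of these for both genes. Neither change passed the test, with -0.29 (adjusted p = 0.238) and -0.35 (adjusted p = 0.16). Against group 3, group 5 was lower for Gstm2 by a log2 change of -0.49 (adjusted p = 0.091), for Gstm5 by -0.69 (adjusted p = 0.0706) and for Gstp3 by -0.32 (adjusted p = 0.0557). The call for Gstp3 was lost in 5 of the 10 fits that left out 1 rat, with adjusted p up to 0.118. The calls for Gstm2 and Gstm5 were lost without rat 1 or 5 of group 5, and without rat 2 or 3 of group 3. Falling slopes over groups 2 to 5 were called for Gstm1, Gstm2 and Gstm5, at -0.0547, -0.0667 and -0.0885 per 10 percentage points (adjusted p = 0.0748, 0.0345 and 0.086).

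Gstt1 had a called slope at day 4, of 0.08 per 10 percentage points (adjusted p = 0.0309), while its change in group 5 at that day was 0.44 (adjusted p = 0.105). Against group 3 at day 4 Gstt1 was the 1 of the 42 genes called in group 5, with 0.47 (adjusted p = 0.0946; 0.83% of all genes), and leaving out any of the 10 rats ended this call (adjusted p up to 0.207). Gstt3 had the widest range of the family, 9.25 to 13.01 over the 49 rats, and was called in no comparison with group 2. Gstz1, which acts in tyrosine breakdown, had the narrowest range of the 19 above the dim level, 12.44 to 12.86, and was also called in none of them.

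**Figure D4:**
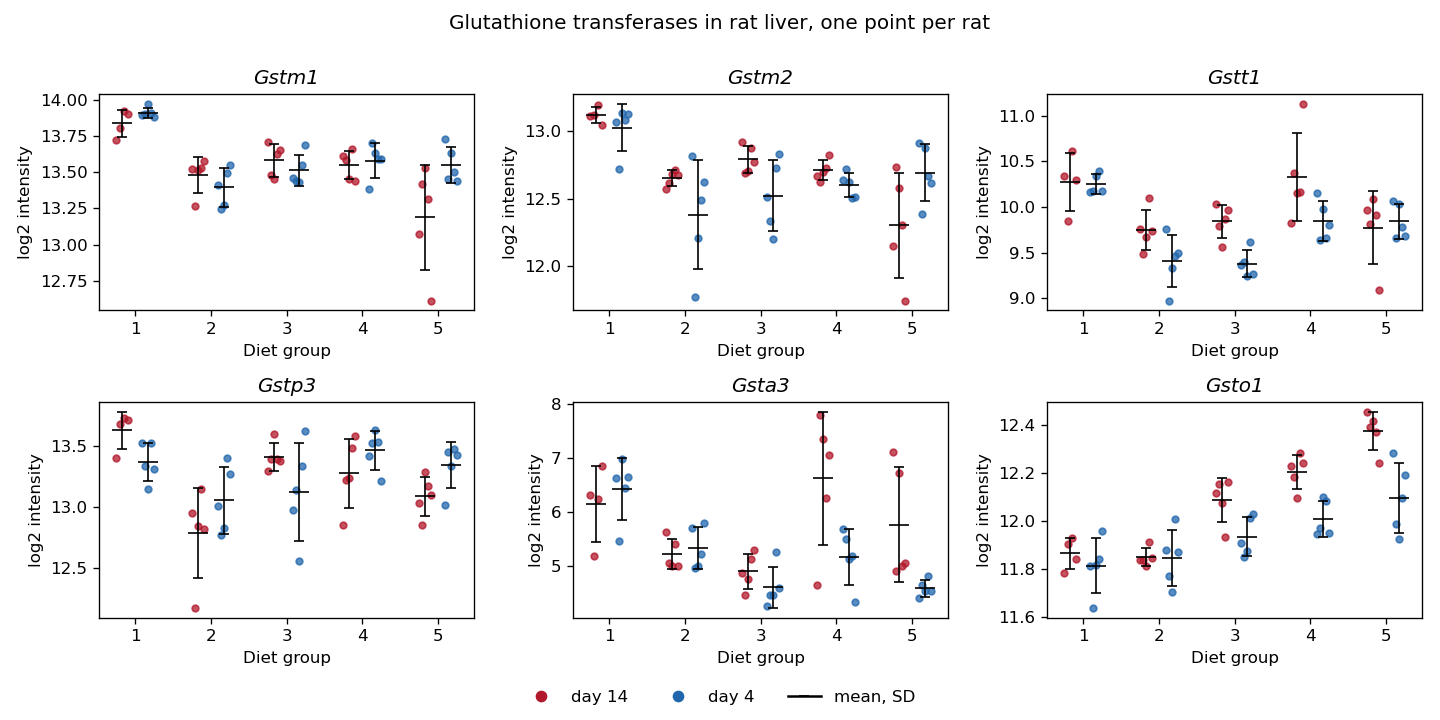
Log2 intensity of 6 glutathione transferases (y axis) by diet group (x axis), with 1 point per rat, day 14 in red to the left and day 4 in blue to the right, and black marks for the mean and SD. The means of Gstm1 and Gstm2 are highest in group 1 on both days, whereas Gsto1 climbs over groups 2 to 5, with group means of 11.85, 12.09, 12.21 and 12.37 at day 14.

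Of the 42 genes, 5 were called between day 14 and day 4 in group 5, or 11.9% (6.71% of all genes). In group 4 there were 8, or 19% (5.47% of all genes), and in group 3 there were 7, or 16.7% (12.8% of all genes). Sult1c3 was lower at day 14 in group 5 by a change of -0.52 (adjusted p = 0.0359), and Gsto1 was higher by 0.28 (adjusted p = 0.0785), a call lost in 6 of the 10 fits that left out 1 rat. In group 4, Gstk1 and Gstm5 were higher by 0.53 and 0.71 (adjusted p = 0.021 and 0.0178), both without overlap.

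The cosubstrates and partners of these enzymes were read from lists of other genes, and all values that follow are log2 changes of group 5 against group 2 at day 14 unless another group is named. For sulfation, 2 of the 6 genes of PAPS supply fell and none rose (10.9% of all genes called lower and 8.88% higher). Papss1, which makes PAPS, had -0.37 (adjusted p = 0.0085). Mean log2 intensity over the 49 rats was 7.26 for Papss1 and 12.25 for Papss2 of the same list, read from different probe sets. In group 1 at day 14 Papss1 was instead higher by 0.37 (adjusted p = 0.0312). For glucuronidation, 2 of the 6 genes listed under UDP-glucuronate supply rose (8.88% of all genes called higher). They were Ugp2, with 0.81 (adjusted p = 0.00121), and Slc37a4, with 0.70 (adjusted p = 0.000106). Slc37a4 is the glucose-6-phosphate carrier and not an enzyme that makes UDP-glucuronate. The medians of the 2 lists were -0.181 and -0.078, against 0.003 over all genes.

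In glutathione synthesis and recycling 4 of 12 genes fell and 1 rose (10.9% of all genes called lower and 8.88% higher). Those that fell were Gss, the last enzyme of glutathione synthesis (-0.61), Cth, which makes cysteine (-0.57), Ggct (-0.54) and 1 more, while Mat1a, which makes S-adenosylmethionine, rose by 0.40. The median of the list was 0.053. Of these Gss also fell in group 1, with -0.52 at day 14 and -0.48 at day 4. Of the 10 microsomal and related glutathione enzymes limma called none in group 5 at day 14 (19.8% of all genes), where 0 had an unadjusted p under 0.05. In group 1 at day 14, 4 of them rose and 1 fell (13.2% of all genes called, 7.26% higher). The difference between these groups was not tested.

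Among regulators of conjugating enzymes 4 of 12 rose and 1 fell (8.88% of all genes called higher and 10.9% lower). Nr1i2 (PXR) had 0.76 (adjusted p = 0.00269), Ppara 0.64 (adjusted p = 0.0684) and Nr3c1, the glucocorticoid receptor, 0.48 (adjusted p = 0.0103), whereas Nfe2l2, which encodes NRF2, had -0.54 (adjusted p = 0.00999). Of 9 NRF2 targets outside the 3 families 2 fell (10.9% of all genes lower), Nqo1 (-0.92) and Txnrd1 (-0.28), and none rose. In group 1 at day 14, 2 of the 9 rose (7.26% of all genes higher), Akr7a3 with 1.01 and Ephx1 with 0.79. Of 8 targets of CAR and PXR 2 rose (8.88% of all genes higher), Por by 1.58 and the conjugate exporter Abcc2 by 0.44.

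Genes known to differ between the sexes in rat liver were read in the same comparison. Of 7 genes typical of male rat liver 3 fell and none rose, namely Obp3 (-1.40), Hsd3b5 (-0.47) and Cyp2a2 (-0.32). Of 7 typical of female liver 3 rose and none fell, namely Cux2 (2.41), Trim24 (1.90) and Prlr (1.82). In all genes 10.9% were called lower and 8.88% higher. The other conjugating enzymes, which add acetyl, methyl or amino acid groups, had 3 of 13 higher and 1 lower, with Nat8 at 1.24, Nnmt at 1.02, Glyat at 0.81 and Nat1 at -0.75. Of 10 periportal hepatocyte genes 7 rose and none fell, and of 11 pericentral genes 3 rose and 2 fell.

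Blood and other cell types were followed by their markers in the same comparison. Of 4 erythroid markers 2 fell, Hbb (-2.14) and Alas2 (-1.98), with summed intensities of 1273 to 3548 in group 5 and 7408 to 10714 in group 2. Sums of 6 bile duct markers were 1127 to 1612 in group 5 and 1227 to 1556 in group 2, and those of 9 stellate cell and fibroblast markers were 2433 to 4293 in group 5 and 3334 to 5638 in group 2. Hepatocyte markers summed to 146837 to 150879 in group 5 and 158337 to 162902 in group 2. None of the markers in these 4 lists had a mean below the dim level, while 4 of the 6 pancreatic acinar markers did. Of the hepatocyte markers 2 of 7 fell and of the bile duct markers 1 of 6 rose. In all genes 10.9% were lower and 8.88% higher. The part of these cell types in the changes of the conjugating enzymes was not tested.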

How the data were processed

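Livers of 49 rats were each hybridised to 1 array, and array results for liver alone were used. Per the labels and the study's methods, the authors made the intensities with RMA (background correction, quantile normalization and probe summary); the submitters' processing notes name Affymetrix Expression Console, R 3.0.1 and affy 1.38.1. The deposited intensity values are linear, from 8 to 33095, and were taken to log2 here. RMA assumes similar overall distributions, and array medians lay at log2 6.34 to 6.426. Arrays hold no read depth, so the number of rats limits the precision. No pair of arrays was identical, and 0 columns went unmapped.

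Of 31042 probe sets, 20826 had 1 symbol, 436 several and 9780 none. The probe set with the highest mean stood for each of 14217 genes. Intensities of different probe sets do not rank mRNA amounts, and close paralogs may bind each other's probes. RefSeq positions and promoters are of GRCr8 (41 members matched by gene ID and 1 by symbol, 37 of 42 with a promoter window).

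Each comparison was fitted with limma 3.58.1 in R 4.3.3 on its own groups, with Benjamini-Hochberg adjustment over all genes and a threshold of 0.1. The model used in the study's methods was not installed. The slope used groups 2 to 5, and the difference between days used groups 5 and 2 of both days. The scripts were checked on simulated data. Genes were named by a rule: for groups 5 and 1 against group 2 on each day, the 2 largest called rises and falls of each family, which gave 14, and up to 4 called genes of each other list by their change in group 5 at day 14. Genes of the lists named for group 1 were chosen after their values were seen. The members and lists were chosen with earlier results of these data known. The alternatives were quantile normalization, removal of dim genes, the mean of a gene's probe sets, a fit of all groups together, array weights, a threshold of 0.05 and leaving out each rat. Tables and figures were made with Python 3.11.15, numpy 2.4.6, pandas 2.3.3 and matplotlib 3.10.9.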

Additional observations from a re-analysis of the deposited data

Results flagged for a closer look

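Single rats stood apart from their group in 11 of 150 groups of values examined, where chance gives about 1 in 20. The count is no measure of an excess, because the groups examined include Ugt2b, which was chosen after its values were seen. Of the 11, 4 were rats with the low level of Ugt2b. They read 4.64, 4.25 and 5.88 in groups 1, 4 and 5 at day 4, and 7.45 in group 5 at day 14. Sult2a6 was high in 1 rat of group 1 at day 4, at 9.50, where the others read 7.77 to 7.98. Sult2b1 had a high rat in group 4 at day 4, at 6.64, and a low rat in group 4 at day 14, at 6.21. Ugt2b34l1 had a low rat in group 1 at day 14, at 5.88, and Gstt1 in group 5 at day 14, at 9.09. Gstp1 had a low rat in group 5 at day 4, at 9.45, and Gstp3 in group 1 at day 14, at 13.41.

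The change of Sult2a6 in group 5 against group 2 differed between the days by 2.70 on the log2 scale (adjusted p = 0.0506 by limma), being larger at day 14.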

How the results depend on the processing

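No paired analysis was possible because the rats of different groups and days were separate animals. Counts are of the 42 genes called. Some counts moved with 1 fit of all groups, given here with the share of all genes called. Against group 2 at day 4 they became 4 for group 5 (10.2%) and 2 for group 4 (7.91%). At day 14 they became 15 for group 5 (27.5%), 13 for group 4 (16.8%) and 7 for group 1 (16.9%). Between days they became 9 in group 5 (14.9%), 4 in group 3 (14.4%) and 1 in group 2 (0.274%). The difference between days had 7 (4.79%). At an adjusted p under 0.05 there were 0 in group 4 at day 4, 6 in group 1 at day 14, 3 in group 5 against group 3 at day 14 and 0 at day 4, 3 between days in group 5 and 0 for the difference between days. Quantile normalization gave 2 for the difference between days and 0 for group 5 against group 3 at day 4, as did the mean of probe sets (0). Array weights gave 1 between days in group 1. The cause of these shifts was not tested.

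Leaving out 1 rat gave 6 to 12 calls in group 5, 7 to 11 in group 4, 2 to 5 in group 3 and 6 to 9 in group 1 at day 14, against group 2. At day 4 it gave 2 to 4 in group 5, 0 to 2 in group 4, 0 to 0 in group 3 and 8 to 12 in group 1. Group 5 against group 3 had 3 to 8 at day 14 and 0 to 0 at day 4. Between days there were 3 to 6 in group 5, 6 to 9 in group 4, 5 to 10 in group 3, 0 to 0 in group 2 and 0 to 1 in group 1. The slope had 9 to 15 at day 14 and 4 to 6 at day 4, and the difference between days 0 to 2. Counts moved by over 1.5 times without rat 1 of group 2 (4 calls in group 5 at day 4), without rats 1, 2 and 4 of group 4 or rats 2 and 5 of group 2 (0 in group 4 at day 4), and without rats 1 and 4 of group 2 (2 there). They also moved without rats 1 and 5 of group 3 (2 at day 14), rats 1 and 3 of group 1 or rat 5 of group 2 (6 at day 14), any rat of group 5 against group 3 at day 4 (0), and, at day 14, rats 1 and 5 of group 5 or 2 and 3 of group 3 (3) and 4 and 5 of group 3 (4). Between days, rats 1 and 2 of day 14 or 2 and 3 of day 4 in group 5 gave 3 and rat 4 of day 4 in group 1 gave 1. For the difference between days, rats 2 and 4 of group 5 at day 14, rats 1 and 4 of group 5 at day 4 and rat 3 of group 2 at day 4 each gave 2, and rat 3 of group 5 and rat 4 of group 2 at day 4 gave 0.

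Of 94 values of the named genes, 1 changed sign: Sult2b1 in group 5 at day 14, not called, was -0.0915 (adjusted p = 0.473) over the mean of its probe sets and 0.19 otherwise. The small number of rats limits what changes under the spread could be seen.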

Other observations

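Some conjugating enzymes were measured only by probe sets that carry several symbols, and these were fitted apart, among 20830 probe sets. The 2 probe sets shared by all 8 Ugt1a genes, which conjugate bilirubin and phenols and share most of their transcript, were lower in group 1 than in group 2. At day 4 the first read 12.99, 13.27, 13.18, 13.14 and 12.92 in group 1, against 13.67, 13.82, 13.70, 13.82 and 13.75 in group 2, without overlap. Its log2 change was -0.65 (adjusted p = 0.000178 by limma) and that of the other -0.87 (adjusted p = 3.3e-05). At day 14 the changes in group 1 were -0.50 and -0.60 (adjusted p = 0.00816 and 0.00495).

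The same probe sets were also lower under restriction, by -0.26 and -0.37 in group 5 at day 4 (adjusted p = 0.0312 and 0.0174), by -0.30 and -0.40 in group 5 at day 14 (adjusted p = 0.0736 and 0.023) and by -0.32 and -0.45 in group 4 at day 14 (adjusted p = 0.0381 and 0.0116). A probe set shared by Gsta5 and Gsta2 had a change of 1.17 in group 1 at day 4 (adjusted p = 0.00616) and of 0.61 at day 14 (adjusted p = 0.0692). These genes were described after their values were seen.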
